A study of Mus musculus with 12 samples.

Results

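Irg1, Nos2, Arg1, Arg2, Ass1, Ptgs2, Ptges and Ch25h encode enzymes of itaconate, arginine and lipid mediator metabolism that are associated with activated macrophages. They were found by their gene symbols in the count tables of 12 mouse lung libraries. All 8 were listed in both sets of libraries, which have 21627 gene symbols in common, out of 33924 listed in the first set and 22609 in the second.

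RNA was sequenced from whole lung of mice of the B6 background, 6 to 8 weeks old, 14 to 16 h after treatment with PBS or with an extract of a house dust mite labelled D.f. The first set, here the RNase III set, held wild-type lung only: PBS (libraries 1 and 2), D.f. extract without RNase III (libraries 3 and 4) and D.f. extract with RNase III (libraries 5 and 6). RNase III is an enzyme that cuts double-stranded RNA. The second set, the knockout set, compared wild-type mice with mice doubly deficient for TLR3, an endosomal receptor of double-stranded RNA, and MAVS, the adaptor through which cytosolic RNA sensors signal. It held 1 PBS library of the wild type (library 1), 1 PBS library of the knockout (library 2), 2 D.f. libraries of the wild type (libraries 3 and 4) and 2 D.f. libraries of the knockout (libraries 5 and 6). No group received PBS with RNase III, so an effect of the enzyme without extract was not measured. The labels do not give the route, the dose or the number of animals behind a library, and p-values measure only the spread between these libraries.

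Irg1, now named Acod1, makes itaconate from a tricarboxylic acid cycle intermediate in activated macrophages. Arginine is drawn on by competing enzymes: Nos2, the inducible nitric oxide synthase, makes nitric oxide and citrulline, whereas Arg1 in the cytosol and Arg2 in mitochondria make ornithine and urea. Ass1 acts in the route that rebuilds arginine from citrulline. Ptgs2, the inducible cyclooxygenase, and Ptges, a prostaglandin E synthase, act in sequence to make prostaglandin E2, and Ch25h hydroxylates cholesterol to an oxysterol that restrains sterol synthesis and is known as an interferon-induced product.

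In the annotation of the mouse build NCBIM37 (GENCODE release M1), which corresponds to the mm9 genome the authors mapped to, all 8 are protein-coding. Irg1 lies at chr14:103446194-103455790, Nos2 at chr11:78734289-78773756, Arg1 at chr10:24635014-24647276, Arg2 at chr12:80231764-80257288, Ass1 at chr2:31325727-31376192, Ptgs2 at chr1:151947254-151955140, Ptges at chr2:30744991-30785383 and Ch25h at chr19:34548276-34549625. Ch25h has a single exon block of 1350 bases, and Nos2 has 27. Of the 8, 3 overlap another annotated gene: the end of Arg2 shares 285 bases with Vti1b on the opposite strand, Ptges holds the 380-base pseudogene Gm13400 and Ch25h shares 328 bases with the antisense Gm16704. The strand setting of the counting is not given in the sources used here, so reads in these stretches cannot be assigned with certainty.

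Promoter windows were in the RefSeq table (GRCm38.p6, 250 bases before to 50 after the start) for 5 of the 8 genes, with Irg1 under Acod1. Nos2, Arg1 and Arg2 were not matched. The windows of Irg1 and Ch25h are shown because these genes had the largest fitted rises with extract in the RNase III set, and that of Ptgs2 because it did not pass the test there. Capitals mark matches to a kappa B pattern (GGGANNNNCC) and to TATAAA.
Acod1 promoter, chr14:103046762-103047061, plus strand: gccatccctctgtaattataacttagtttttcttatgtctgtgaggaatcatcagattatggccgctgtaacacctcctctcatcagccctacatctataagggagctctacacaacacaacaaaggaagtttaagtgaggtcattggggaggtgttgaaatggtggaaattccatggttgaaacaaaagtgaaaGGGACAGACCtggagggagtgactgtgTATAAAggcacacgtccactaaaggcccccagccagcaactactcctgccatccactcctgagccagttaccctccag
Ch25h promoter, chr19:34475099-34475398, minus strand: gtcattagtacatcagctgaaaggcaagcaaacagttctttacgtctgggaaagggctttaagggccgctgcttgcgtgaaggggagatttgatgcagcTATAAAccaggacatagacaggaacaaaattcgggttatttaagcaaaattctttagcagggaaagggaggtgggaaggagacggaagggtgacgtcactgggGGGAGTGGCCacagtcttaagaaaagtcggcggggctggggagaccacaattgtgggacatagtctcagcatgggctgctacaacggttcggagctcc
Ptgs2 promoter, chr1:150099781-150100080, plus strand: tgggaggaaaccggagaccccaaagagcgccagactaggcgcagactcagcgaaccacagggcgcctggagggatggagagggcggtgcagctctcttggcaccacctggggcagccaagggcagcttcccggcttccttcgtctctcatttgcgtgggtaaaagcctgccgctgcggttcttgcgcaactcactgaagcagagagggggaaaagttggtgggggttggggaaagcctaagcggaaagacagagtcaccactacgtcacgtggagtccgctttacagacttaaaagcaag

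The kappa B pattern began 55 bases upstream of the annotated start in Irg1 and 48 bases upstream in Ch25h, and Ass1 held one 152 bases upstream. TATAAA began 28 bases upstream in Irg1 and 151 bases upstream in Ch25h. The other patterns searched, GAAANNGAA (the core of an interferon-stimulated element), TTCNNNGAA (the GAS element) and TGANTCA (AP-1), were not found in the 5 windows, and the windows of Ptgs2 and Ptges held none of the 5 patterns. Both strands were searched. Over all 32851 promoter windows of this length, 20.7% held the kappa B pattern, 13.6% TATAAA, 8.56% GAAANNGAA, 8.3% TTCNNNGAA and 7.81% TGANTCA. These matches describe letters in a window and say nothing of binding.

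The depth of the RNase III set was 17754518 to 25714074 gene-assigned reads a library, and that of the knockout set 15687699 to 20945618. Levels are given as CPM, the read count scaled to a common library size, and a count of 0 allows a level of up to 3 reads, here 0.119 to 0.189 CPM. The targeted genes followed the labels: Mavs stood at 2.35 to 3.09 CPM in the 3 knockout libraries and at 32.2 to 36.4 CPM in the 3 wild-type libraries of that set, and Tlr3 at 10.04 to 14.8 CPM against 42.4 to 156 CPM. The sets differed beyond treatment, with a summed level of 6 club cell markers of 13400 to 28405 CPM in the RNase III set and 1470 to 2147 CPM in the knockout set. Levels are therefore compared within a set. Libraries of a group also differed: the cardiac muscle markers summed to 188 and 1432 CPM in the PBS pair of the RNase III set. In the knockout D.f. pair, library 6 stood above library 5 in the summed neutrophil markers (526 against 265 CPM) and adipose markers (609 against 296 CPM).

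**Figure D1:**
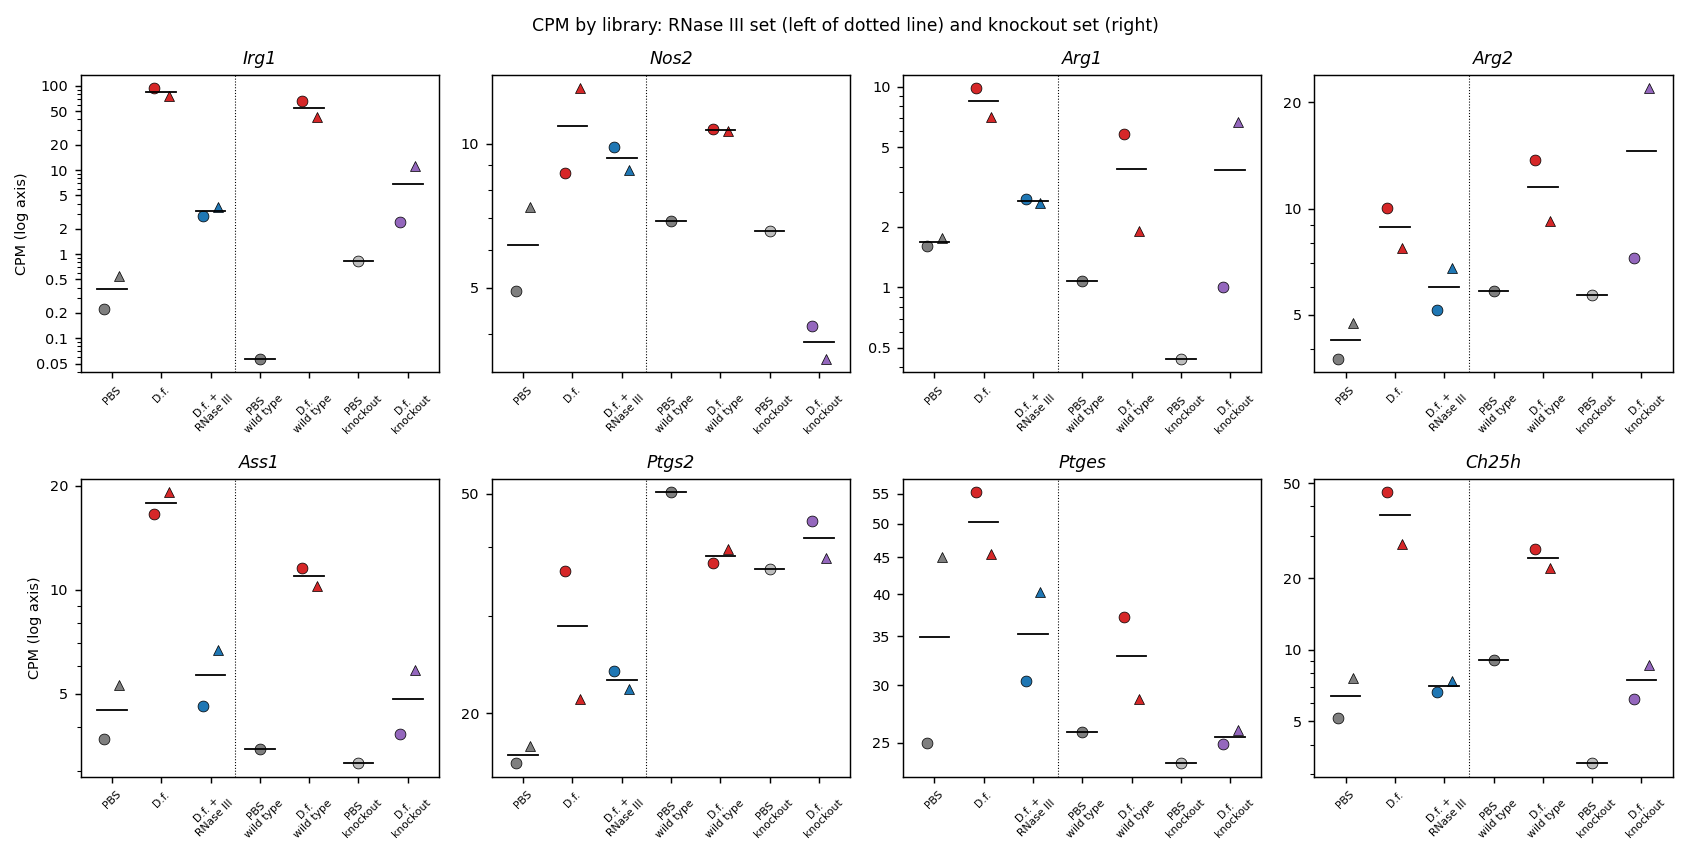
CPM of the 8 genes in each of the 12 libraries, on log axes that differ between panels. Circles are the lower-numbered and triangles the higher-numbered library of a group, bars are group means, and the dotted line separates the RNase III set from the knockout set. Irg1 spans 0.0569 to 94.4 CPM, and Arg1, Arg2 and Irg1 of the knockout D.f. pair lie far apart.

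In wild-type lung of the RNase III set, D.f. extract raised 5 of the 8 genes: Irg1, Ch25h, Arg1, Ass1 and Arg2. Their fitted rises ran from 2.08-fold for Arg2 to 211-fold for Irg1, and Irg1 ranked 5 of all 17165 genes tested by log2 fold change. Nos2, Ptgs2 and Ptges did not pass the test. By the same threshold, an edgeR adjusted p under 0.05 over all genes tested, 6.51% of genes were higher and 4.5% lower with extract. The median log2 fold change of the 8 genes was 1.52, beside -0.01 over all genes tested. The 8 genes were chosen with earlier results of these data known, so such counts and medians, here and below, are a description.

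Irg1 was close to undetected with PBS, at 0.221 CPM (4 reads) and 0.543 CPM (12 reads), and stood at 94.4 and 75.3 CPM with D.f. extract. The D.f. libraries were both far above the PBS libraries. The log2 fold change was 7.72 ± 0.32 (SE derived from the edgeR test statistic, n = 2 per group, edgeR adjusted p = 0.000105).

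Among the arginine genes, Arg1 stood at 1.60 and 1.76 CPM with PBS and at 9.83 and 7.05 CPM with extract. Ass1 stood at 3.70 and 5.29 CPM with PBS and at 16.6 and 19.1 CPM with extract. Arg2 stood at 3.76 and 4.75 CPM with PBS and at 10.03 and 7.75 CPM with extract. For each of these genes both D.f. libraries were above both PBS libraries. The cytosolic arginase rose the most of them, 4.996-fold (log2 fold change 2.32 ± 0.27, edgeR adjusted p = 0.0027), followed by Ass1 with 3.95-fold (1.98 ± 0.26, edgeR adjusted p = 0.00427) and Arg2 with 2.08-fold (1.06 ± 0.26, edgeR adjusted p = 0.0417). Nos2, which competes with the arginases for arginine, stood at 4.92 and 7.37 CPM with PBS and at 8.68 and 13.1 CPM with extract. The groups did not overlap, but the log2 fold change of 0.82 ± 0.28 did not pass (edgeR adjusted p = 0.116, and 0.0335 without PBS library 2). The Arg2 call was lost in 6 of 10 alternatives, whose edgeR or DESeq2 adjusted p ran from 0.00994 to 0.226, and that of Arg1 was lost in a fit over all 12 libraries (edgeR adjusted p = 0.0679).

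Of the lipid mediator genes, Ch25h stood at 5.19 and 7.64 CPM with PBS and at 45.9 and 27.7 CPM with extract, a rise of 5.71-fold without overlap (log2 fold change 2.51 ± 0.29, edgeR adjusted p = 0.00256). Ptgs2 stood at 16.2 and 17.4 CPM with PBS and at 36.3 and 21.2 CPM with extract. Its D.f. library 3 was well above the other, and the log2 fold change of 0.77 ± 0.24 did not pass (edgeR adjusted p = 0.0914), although DESeq2 (adjusted p = 0.039) and the fit without library 4 (edgeR adjusted p = 0.0276) called it. Ptges stood at 24.96 and 44.96 CPM with PBS and at 55.2 and 45.4 CPM with extract. The second PBS library and the second D.f. library were nearly level, and the log2 fold change was 0.52 ± 0.28 (edgeR adjusted p = 0.291). Without PBS library 2 it was 1.01 (edgeR adjusted p = 0.0143).

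With RNase III in the extract, 4 of the 8 genes were lower than with the extract alone: Irg1, Ch25h, Ass1 and Arg1. These 4 are also among the 5 that the extract raised, and both comparisons use the same D.f. libraries. Over all 17165 genes tested, 4.85% were lower and 2.41% higher with RNase III than without it. The median log2 fold change of the 8 genes was -1.11, beside 0.00 over all genes tested.

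Irg1 stood at 2.81 and 3.64 CPM with RNase III, far below the D.f. libraries and above the PBS libraries. It was 26.3-fold lower than with extract alone (log2 fold change -4.72 ± 0.25, edgeR adjusted p = 0.000351). Ch25h stood at 6.66 and 7.38 CPM with RNase III, within the range of the PBS libraries. It was 5.24-fold lower than with extract alone (log2 fold change -2.39 ± 0.29, edgeR adjusted p = 0.00415), a call lost without library 5 (log2 fold change -2.32, edgeR adjusted p = 0.0716) or library 6 (-2.46, edgeR adjusted p = 0.0538), with the fold change nearly as before. Ass1 stood at 4.62 and 6.68 CPM with RNase III, overlapping the PBS libraries. It fell by 1.66 ± 0.26 on the log2 scale (edgeR adjusted p = 0.0108). Arg1 stood at 2.75 and 2.62 CPM with RNase III, between the PBS and the D.f. libraries. It fell by 1.65 ± 0.26 on the log2 scale (edgeR adjusted p = 0.0117). With 1 of the D.f. or RNase III libraries left out, the edgeR adjusted p of Ass1 ran from 0.0551 to 0.136, and that of Arg1 was 0.093, 0.143 and 0.124 without libraries 3, 5 and 6 and 0.186 in the fit over all 12 libraries.

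The other 4 genes did not pass in this comparison. Nos2, at 9.86 and 8.82 CPM with RNase III, lay between the D.f. libraries (log2 fold change -0.22 ± 0.28, edgeR adjusted p = 0.711). Ptgs2, at 23.8 and 22.1 CPM, also lay between them (-0.32 ± 0.24, edgeR adjusted p = 0.49). Arg2, at 5.18 and 6.79 CPM, was below both D.f. libraries and above both PBS libraries (-0.57 ± 0.25, edgeR adjusted p = 0.24). Ptges, at 30.4 and 40.3 CPM, was below both D.f. libraries and within the PBS range (-0.51 ± 0.28, edgeR adjusted p = 0.339).

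Against PBS, the extract with RNase III called none of the 8 genes in edgeR, and 0.00583% of all genes (1 of 17165). At an unadjusted p under 0.05 there were 2 of the 8 genes, Irg1 and Arg1, and 835 genes in all. The Irg1 libraries lay above both PBS libraries, with a log2 fold change of 3.01 ± 0.36 (8.05-fold) and an edgeR adjusted p of 0.216. DESeq2 called it (adjusted p = 3.59e-08), as did edgeR without a filter on low counts (adjusted p = 0.00383) and without PBS library 1 (0.0312) or 2 (0.0249). DESeq2 called none of the other 7. Their log2 fold changes ran from 0.01 for Ptges to 0.67 for Arg1.

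**Figure D2:**
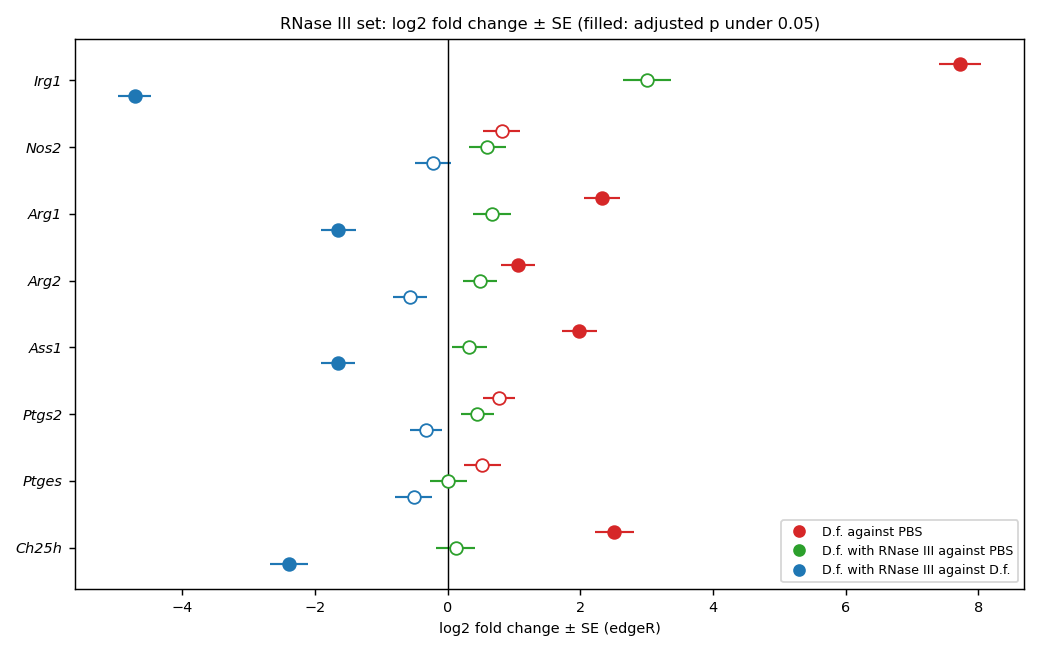
Log2 fold changes of the 8 genes ± SE in the 3 comparisons of the RNase III set, from edgeR; filled points have an adjusted p under 0.05. Irg1 lies farthest from 0 in each comparison, and the points of the extract with RNase III against PBS are all open.

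Marker levels also differed between the groups of the RNase III set, some higher and some lower with extract. The 14 listed markers of monocytes and interstitial macrophages summed to 633 to 777 CPM with PBS, 1254 to 1257 CPM with extract and 682 to 710 CPM with RNase III, and 6 of 14 rose and 1 fell with extract. The 12 neutrophil markers summed to 139 to 287, 357 to 515 and 234 to 343 CPM in the same order, with 3 of 11 tested higher with extract. The 12 alveolar macrophage markers summed to 1023 to 1063, 407 to 711 and 677 to 771 CPM, with 1 higher and 4 lower with extract. None of the markers of these 3 lists was at 0 in any library. Markers of other lung cells were lower with extract in 4 of 10 cases for fibroblasts, 2 of 6 for club cells and 2 of 10 for endothelium. The fibroblast sums overlapped, at 3511 to 4511 CPM with PBS and 3063 to 3608 CPM with extract. The club cell sums did not, at 21592 to 28405 and 13400 to 16505 CPM, nor did the endothelial sums, at 4156 to 4902 and 3107 to 3815 CPM. The 10 cardiac muscle markers summed to 531 to 1086 CPM with extract and 223 to 247 CPM with RNase III, without overlap, beside the wide PBS pair given above. By the test, 0 of these 10 were lower with RNase III than with extract alone and 1 was higher. Adipose sums were also lower with RNase III, at 286 to 287 against 312 to 371 CPM. Alveolar type 2 sums were higher, at 16468 to 19349 against 11033 to 14287 CPM. Club cell sums (17864 to 20672 CPM) and endothelial sums (4047 to 4287 CPM) with RNase III were also above those with extract. No marker of these other lists passed between extract with and without RNase III. Fibroblast and erythroid sums overlapped. In whole lung, more cells of a type and more RNA per cell cannot be told apart, and the part of these markers in the changes of the 8 genes was not tested.

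In the knockout set the same question was put to lung without Tlr3 and Mavs. With D.f. extract, 2 of the 8 genes were lower in the knockout than in the wild type: Nos2 and Ch25h. Over all 15294 genes tested, 2.01% were lower and 0.517% higher. The median log2 fold change of the 8 genes was -0.77, beside 0.01 over all genes tested.

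Nos2 stood at 10.7 and 10.6 CPM in wild-type D.f. lung and at 4.15 and 3.55 CPM in knockout D.f. lung. The groups did not overlap, and the wild-type pair was nearly level. Nos2 was 2.77-fold lower in the knockout (log2 fold change -1.47 ± 0.17, edgeR adjusted p = 0.025). Ch25h stood at 26.6 and 22.1 CPM in the wild type and at 6.22 and 8.64 CPM in the knockout. It was 3.27-fold lower without overlap (log2 fold change -1.71 ± 0.21, edgeR adjusted p = 0.0261). Leaving out wild-type D.f. library 3 or 4 ended both calls while the log2 fold changes stayed close. Nos2 then had -1.46 and -1.48 (edgeR adjusted p = 0.321 and 0.236), and Ch25h had -1.57 and -1.84 (edgeR adjusted p = 0.301 and 0.178). In these fits the estimated spread rests on the knockout D.f. pair alone. Leaving out knockout D.f. library 5 or 6 instead left the estimated spread to rest on the wild-type D.f. pair alone. More of the 8 genes were then called, not all of them lower. Arg2 was higher in the knockout without library 5 (log2 fold change 0.93).

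Summed marker levels also differed between the genotypes given extract. The sums of monocyte and interstitial macrophage markers were 917 to 1066 CPM in the wild type and 760 to 788 CPM in the knockout, with 1 of 14 higher and 1 lower in the knockout. Those of alveolar macrophage markers were 620 to 630 and 773 to 828 CPM, with 2 of 11 tested higher in the knockout. Fibroblast markers summed to 5751 to 5958 and 3873 to 4666 CPM, with 2 of 10 lower in the knockout. Cardiac muscle markers summed to 466 to 696 and 132 to 193 CPM, with 3 of 9 tested lower in the knockout. None of these 4 pairs of ranges overlapped, whereas the neutrophil sums did, at 235 to 342 and 265 to 526 CPM. Endothelial sums (4386 to 4860 and 5101 to 5150 CPM) and adipose sums (267 to 290 and 296 to 609 CPM) also did not overlap. Both were higher in the knockout, with 0 of 10 and 0 of 6 tested markers called. The sums of alveolar type 2, club cell and erythroid markers overlapped. The part of these markers in the lower Nos2 and Ch25h levels was not tested.

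Irg1 stood at 65.5 and 42.5 CPM in wild-type D.f. lung and at 2.39 and 11.3 CPM in knockout D.f. lung. The genotypes did not overlap, but the knockout libraries differed 4.72-fold from each other. Its log2 fold change of -2.97 ± 0.65 did not pass in edgeR (adjusted p = 0.0916) and passed in DESeq2 (adjusted p = 1.91e-06) and in the fit over all 12 libraries (edgeR adjusted p = 0.0219). Ass1 stood at 11.6 and 10.3 CPM in the wild type and at 3.83 and 5.85 CPM in the knockout, again without overlap (log2 fold change -1.17 ± 0.25, edgeR adjusted p = 0.0883, DESeq2 adjusted p = 0.0461).

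The arginases had no such separation. Arg1 stood at 5.82 and 1.92 CPM in the wild type and at 1.01 and 6.70 CPM in the knockout, with a log2 fold change of -0.02 ± 0.89 (edgeR adjusted p = 0.996). Arg2 stood at 13.7 and 9.24 CPM in the wild type and at 7.23 and 21.9 CPM in the knockout, with 0.34 ± 0.52 (edgeR adjusted p = 0.793). In both genes knockout library 6 was the highest of the 4 and knockout library 5 the lowest. Without library 6 the log2 fold changes were -1.96 for Arg1 and -0.67 for Arg2, and without library 5 they were 0.76 and 0.93. Library 6 also had the higher neutrophil and adipose marker sums given above, whose part in these values was not tested.

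The prostaglandin genes were closer between genotypes. Ptgs2 stood at 37.4 and 39.7 CPM in the wild type and at 44.7 and 38.3 CPM in the knockout, with overlap (log2 fold change 0.11 ± 0.11, edgeR adjusted p = 0.689). Ptges stood at 37.2 and 28.7 CPM in the wild type and at 24.9 and 26.0 CPM in the knockout, without overlap (-0.37 ± 0.15, edgeR adjusted p = 0.274).

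Each genotype had 1 PBS library, taken to vary like the replicated groups. In the wild type none of the 8 genes passed for extract against PBS, while 1.52% of all 15294 genes did; at an unadjusted p under 0.05 there were 5 of the 8 and 2615 genes in all. DESeq2 called Irg1, Ch25h and Ass1. Without knockout D.f. library 5 or 6 the spread rested on the wild-type D.f. pair, and the fitted changes stayed close. Those of Irg1 were then 9.73 and 9.70, and those of Ptgs2, which was lower with extract, -0.38 and -0.41. Irg1 had 1 read in the PBS library (0.0569 CPM, under the 3-read limit) and 2037 reads over the D.f. libraries, a ratio of 969 with a 95% counting interval of 174 to 38283. Its edgeR log2 fold change of 9.73 ± 1.65 (adjusted p = 0.068) depends on the prior count. Ch25h stood at 9.05 CPM with PBS, below both D.f. libraries (log2 fold change 1.43 ± 0.26, edgeR adjusted p = 0.0801). Ass1 stood at 3.47 CPM with PBS, also below both (1.65 ± 0.33, edgeR adjusted p = 0.0943). Nos2 stood at 6.89 CPM with PBS (0.63 ± 0.21, edgeR adjusted p = 0.228), Arg1 at 1.08 CPM (1.85 ± 1.31, edgeR adjusted p = 0.521) and Arg2 at 5.86 CPM (0.97 ± 0.69, edgeR adjusted p = 0.521), each below both D.f. libraries. Ptges stood at 25.8 CPM with PBS, also below both (0.35 ± 0.19, edgeR adjusted p = 0.402). Ptgs2 stood at 50.3 CPM with PBS, above both D.f. libraries (-0.38 ± 0.14, edgeR adjusted p = 0.249).

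In the knockout no gene of the 15294 passed for extract against PBS (0%); the unadjusted p was under 0.05 for 847 genes, among them Irg1, Nos2 and Ch25h, and DESeq2 called 37 genes, among the 8 only Irg1 (adjusted p = 0.0281). Irg1 stood at 0.820 CPM with PBS (13 reads), below both knockout D.f. libraries (log2 fold change 3.06 ± 1.196, edgeR adjusted p = 0.819). Ch25h stood at 3.34 CPM with PBS, below both (1.15 ± 0.30, edgeR adjusted p = 0.819). Nos2 stood at 6.56 CPM with PBS, above both (-0.77 ± 0.21, edgeR adjusted p = 0.819). The log2 fold changes of the other 5 genes were 3.11 for Arg1, 1.36 for Arg2, 0.62 for Ass1, 0.19 for Ptgs2 and 0.12 for Ptges (edgeR adjusted p from 0.819 to 0.914). Arg1 had only 7 reads in the PBS library. For Ass1, Ptgs2 and Ptges, a D.f. library lay within the counting interval (exact Poisson, 95%) of the PBS library. These were 3.83 CPM in 2.34 to 4.16, 38.3 CPM in 33.5 to 39.5 and 24.9 CPM in 21.1 to 26.0. Without D.f. library 5 the log2 fold changes were 3.77 for Irg1, 3.90 for Arg1, 1.95 for Arg2 and -0.89 for Nos2. Over the alternatives those of Irg1, Arg1 and Arg2 ran as low as 1.54, 1.18 and 0.35. These values thus depended on the fit used.

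The PBS libraries of the genotypes could be compared only as 2 libraries, with no replicate check. Ch25h was lower in the knockout library, at 3.34 CPM (exact Poisson 95% interval 2.503 to 4.37) against 9.05 CPM (7.70 to 10.6). Ptgs2 was also lower, at 36.4 CPM (33.5 to 39.5) against 50.3 CPM (47.0 to 53.7). Irg1 was higher, at 0.820 CPM (0.436 to 1.40) against 0.0569 CPM (0.00144 to 0.317). The intervals of the other 5 genes overlapped. All intervals cover counting error only.

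The difference between the genotypes' responses to extract was tested as an interaction, and none of the 8 genes passed, beside 0.00654% of all genes (1 of 15294). At an unadjusted p under 0.05 there were 2 of the 8, Nos2 and Ptgs2, and 1481 genes in all, and among the 8 DESeq2 called Irg1 (adjusted p = 0.0107). The interaction of Nos2 was -1.40 ± 0.30 (edgeR adjusted p = 0.243), that of Irg1 -6.67 ± 2.85 (0.554) and that of Ch25h -0.28 ± 0.39 (0.908). Ptgs2 had 0.57 ± 0.20 (edgeR adjusted p = 0.429), Ass1 -1.03 ± 0.46 (0.578), Ptges -0.23 ± 0.26 (0.875), Arg1 1.26 ± 2.11 (0.922) and Arg2 0.39 ± 0.96 (0.954). Ch25h was called between genotypes with extract, its PBS level was also lower in the knockout library, and its interaction did not pass. Without knockout D.f. library 5 or 6 the spread again rested on the wild-type D.f. pair. The interaction of Nos2 was then -1.52 and -1.26, and that of Irg1 -5.96 and -8.16. Without library 6, Ass1 had -1.35 and Ptgs2 0.71, and Arg1 and Arg2 changed sign, to -0.65 and -0.60.

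**Figure D3:**
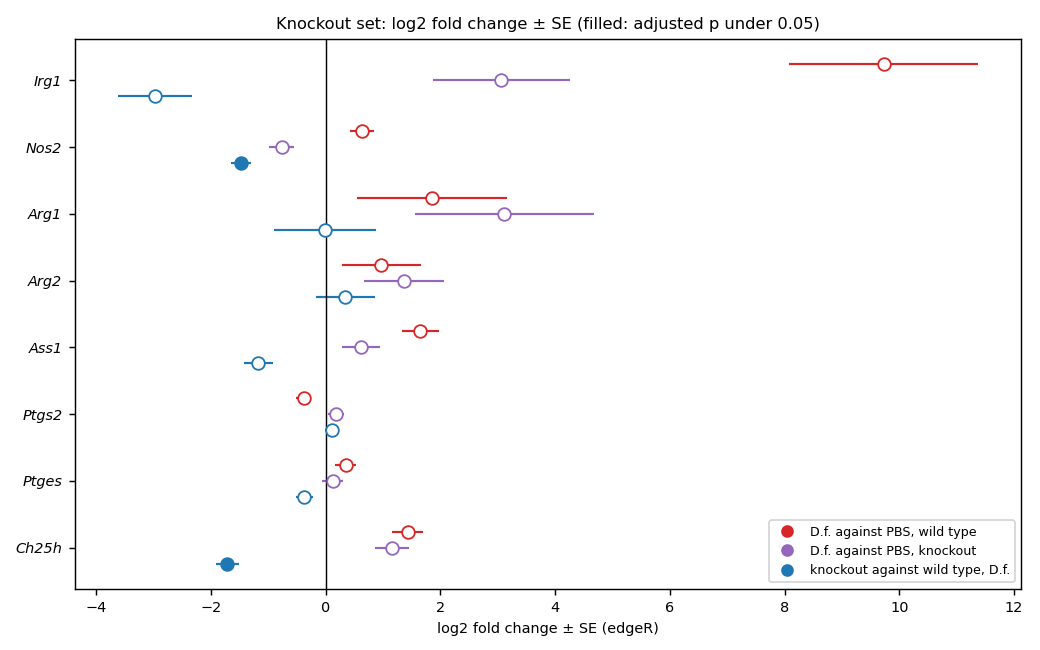
Log2 fold changes of the 8 genes ± SE in the knockout set, from edgeR; filled points have an adjusted p under 0.05. The only filled points are Nos2 and Ch25h in the comparison of genotypes given extract, and the bars of Irg1, Arg1 and Arg2 are wide.

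Pooling the 7 wild-type libraries of PBS and extract alone, with a term for the set, the genes that rose with extract were again Irg1, Ass1, Ch25h, Arg1 and Arg2. In this fit 8.53% of 15481 genes were higher and 6.18% lower. The libraries of the RNase III set enter both fits, so the pooled result is not independent of the first. The log2 fold changes were 7.99 ± 0.36 for Irg1 (edgeR adjusted p = 2.14e-05), 1.84 ± 0.18 for Ass1 (0.00047), 2.05 ± 0.29 for Ch25h (0.00309), 2.14 ± 0.39 for Arg1 (0.0103) and 1.00 ± 0.20 for Arg2 (0.0147). Without D.f. library 3 of the RNase III set the calls of Arg1 (edgeR adjusted p = 0.0504) and Arg2 (0.0675) were lost, as was that of Arg2 without the PBS library of the knockout set (0.0528). Nos2 had 0.72 ± 0.21 (edgeR adjusted p = 0.0532, DESeq2 adjusted p = 0.0152), Ptges 0.43 ± 0.21 (0.202) and Ptgs2 0.26 ± 0.26 (0.554). The response did not differ between the sets by the test for any gene of the 15481 (0%), with 856 at an unadjusted p under 0.05 and 52 called by DESeq2, none of them among the 8. Ptgs2 (set-by-extract term -1.14 ± 0.37, edgeR adjusted p = 0.818) and Ch25h (-1.07 ± 0.45, edgeR adjusted p = 0.901) were under an unadjusted p of 0.05. The terms of the other 6 genes ran from -0.46 for Arg1, through -0.32 for Ass1, -0.17 for Nos2, -0.16 for Ptges and -0.08 for Arg2, to 2.03 for Irg1.

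Per kilobase of annotated exon, the order of the 8 genes changed with treatment. In PBS lung of the RNase III set, Ptges was highest at 8.89 ± 3.59 CPM per kb (mean ± SD, n = 2), followed by Ch25h at 4.75 ± 1.28 and Ptgs2 at 4.06 ± 0.20, and Irg1 was lowest at 0.146 ± 0.087. The levels of Ch25h and Ptgs2 differed by less than their spread. With extract Irg1 came first at 32.4 ± 5.15 CPM per kb and Ch25h came next at 27.3 ± 9.49, which differed by less than their spread, ahead of Ptges at 12.8 ± 1.76, and Nos2 came last at 2.59 ± 0.74. With RNase III the order was again led by Ptges at 8.98 ± 1.78 CPM per kb and closed by Irg1 at 1.23 ± 0.22. In the knockout set, wild-type D.f. lung was led by Irg1 at 20.6 ± 6.18 CPM per kb and Ch25h at 18.0 ± 2.38. Knockout D.f. lung was led by Arg2 at 10.2 ± 7.28 and Ptgs2 at 10.01 ± 1.09 CPM per kb, level within their spread, and closed by Nos2 at 0.918 ± 0.101. Exon lengths are those of the GENCODE annotation, which may differ from the one used for counting.

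**Figure D4:**
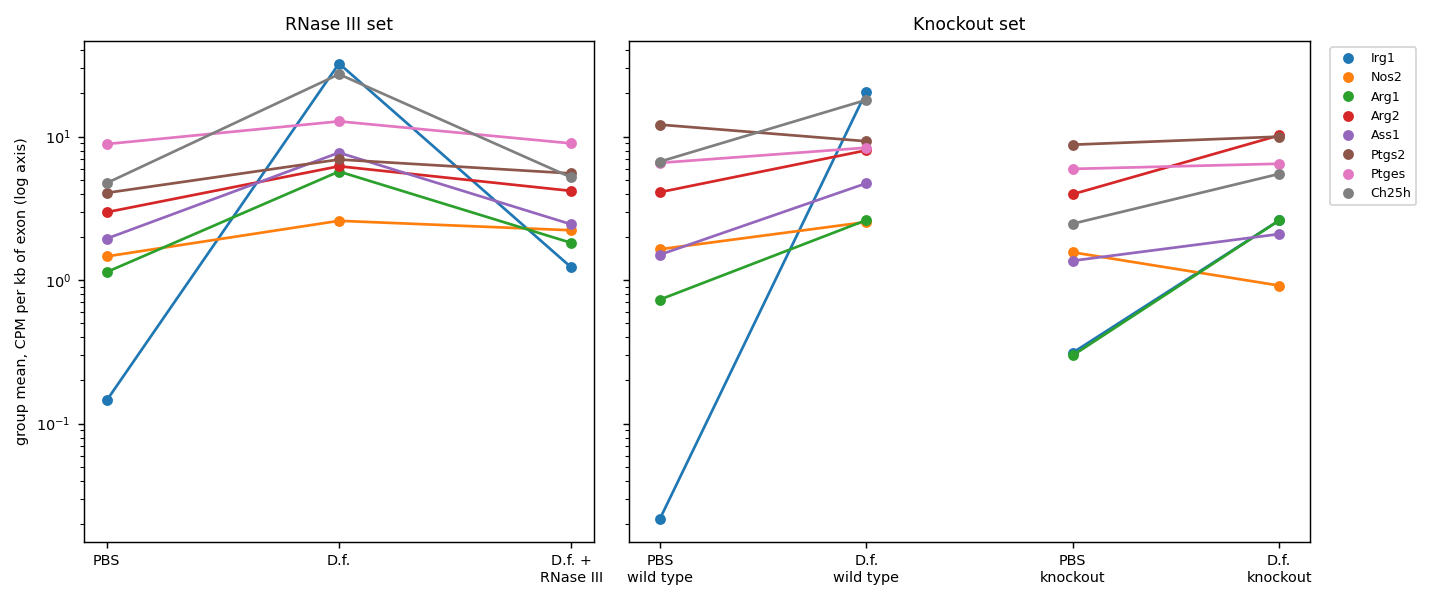
Group means of the 8 genes in CPM per kilobase of exon, on a log axis, for the RNase III set (left) and the knockout set (right); lines join the groups of one genotype. Irg1 runs from the lowest level with PBS, 0.146 in the RNase III set, to the highest with D.f. extract, 32.4, and back to 1.23 with RNase III.

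The genes whose levels ran most like each of the 8 were taken by Pearson r of log2 CPM over the 12 libraries after centring within each set, among 12497 genes. The 12 libraries include the treated groups, and r is given as a description. For Irg1 they were Il1rn, the interleukin-1 receptor antagonist (r = 0.99), Slfn4, a Schlafen family gene of myeloid cells (0.99), and Clec4e, the receptor Mincle (0.98). For Ass1 they were Clic4 (0.99), Rhoc (0.98) and Chmp4b (0.98). For Ch25h they were Ddr1, Txn1 and Ppa1, each at 0.98. For Arg1 they were Tceb3 (0.98), Dhx9 (0.97) and Lpar1 (0.96), and for Arg2 they were Galnt1 (0.98), Mt2 (0.98) and Coq10b (0.97). Lower values were reached for Ptges, with Rbm17 (0.94), Pdia4 (0.93) and Trib1 (0.93), for Nos2, with Tiam1 (0.91), Ash2l (0.91) and Pdcd2 (0.88), and for Ptgs2, with Fam107b (0.91), Slc35f5 (0.88) and Esd (0.88). Among the 8 genes themselves, r was 0.96 for Irg1 and Ass1, 0.94 for Ass1 and Ch25h, 0.94 for Arg1 and Arg2, and 0.08 for Nos2 and Arg2.

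Other genes of the same pathways were taken from 5 lists, whose counts stand beside the 6.51% of all genes higher and 4.5% lower with extract, and the 4.85% lower and 2.41% higher with RNase III. Of the arginine, nitric oxide and polyamine list, 4 of 33 tested genes rose and 2 fell with extract in the RNase III set. Gch1, which starts synthesis of the nitric oxide synthase cofactor tetrahydrobiopterin, stood at 13.4 to 16.6 CPM with PBS, 38.8 to 40.3 CPM with extract and 15.8 to 18.7 CPM with RNase III. It rose by 1.40 ± 0.16 on the log2 scale with extract (edgeR adjusted p = 0.00254) and fell by 1.195 ± 0.160 with RNase III (edgeR adjusted p = 0.00628). Its feedback regulator Gchfr was lower with extract, at 0.828 to 1.04 CPM with PBS and 0.218 to 0.238 CPM with extract, close to the 3-read limit (log2 fold change -2.01 ± 0.45, edgeR adjusted p = 0.0332). Smox, spermine oxidase, and Slc7a1, a cationic amino acid transporter that carries arginine, rose by 1.21 ± 0.17 (edgeR adjusted p = 0.00596) and 0.60 ± 0.15 (0.0445) with extract and fell by 1.06 ± 0.17 (0.0128) and 0.80 ± 0.15 (0.022) with RNase III. These 3 genes were the ones of the 33 called lower with RNase III, and none was higher. In the wild type of the knockout set Slc7a1 had -0.11 ± 0.15 with extract (edgeR adjusted p = 0.76), and its set-by-extract term was -0.69 ± 0.23 (0.826). The terms of Gch1, -0.99 ± 0.26 (edgeR adjusted p = 0.674), and Smox, -0.63 ± 0.23 (0.84), were also negative. Their fitted rises were thus smaller in the knockout set, and the differences did not pass. The median of this list was 0.01 on the log2 scale with extract in the RNase III set, beside -0.01 over all genes.

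In the itaconate and tricarboxylic acid cycle list, 2 of 28 genes rose and 1 fell with extract, close to the shares over all genes and so no result about the list. Keap1, the repressor of Nrf2 that itaconate is known to modify, stood at 64.3 to 76.3 CPM with PBS, 99.7 to 107 CPM with extract and 65.7 to 66.1 CPM with RNase III. It rose by 0.55 ± 0.13 (edgeR adjusted p = 0.0352) and fell by 0.65 ± 0.13 (edgeR adjusted p = 0.0266) on the log2 scale. Hif1a, a transcription factor of hypoxia and inflammation, rose by 0.81 ± 0.14 (edgeR adjusted p = 0.0122) and fell with RNase III by 0.69 ± 0.14 (edgeR adjusted p = 0.0282). Idh2, a mitochondrial isocitrate dehydrogenase, was lower with extract (-0.55 ± 0.11, edgeR adjusted p = 0.0234). In the wild type of the knockout set Idh2 had 0.02 ± 0.11 (edgeR adjusted p = 0.962), with a set-by-extract term of 0.58 ± 0.18 (0.803). The median of the list was -0.03 with extract.

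Of the prostanoid list, 3 of 22 genes rose and 1 fell with extract, and 1 fell with RNase III. The numbers that fell were close to the shares over all genes and so no result about the list. Ptger4, the prostaglandin E2 receptor EP4, stood at 8.34 to 11.5 CPM with PBS, 25.6 to 29.3 CPM with extract and 11.5 to 13.5 CPM with RNase III. Both changes passed, with 1.47 ± 0.20 (edgeR adjusted p = 0.00486) and -1.13 ± 0.20 (0.0165). The set-by-extract term of Ptger4 was -0.77 ± 0.32 and did not pass (edgeR adjusted p = 0.891). Ptgs1, the constitutive cyclooxygenase, rose by 0.53 ± 0.13 (edgeR adjusted p = 0.0448) and the phospholipase gene Pla2g5 by 2.27 ± 0.52 (0.0341), the latter from 0.136 to 0.166 CPM to only 0.697 to 0.793 CPM. Ptgfr, the prostaglandin F receptor, was lower (-1.05 ± 0.23, edgeR adjusted p = 0.0319). The median of the list was -0.16 with extract.

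In the leukotriene and lipoxygenase list none of 14 genes rose and 3 fell with extract. Ltc4s, leukotriene C4 synthase, stood at 3.09 to 4.98 CPM with PBS and 0.793 to 1.31 CPM with extract (-1.95 ± 0.38, edgeR adjusted p = 0.0204), and Alox5, arachidonate lipoxygenase of the leukotriene route, at 12.2 to 17.5 CPM and 4.62 to 8.12 CPM (-1.22 ± 0.31, edgeR adjusted p = 0.0455). Ephx1, an epoxide hydrolase, was the third (-0.99 ± 0.23, edgeR adjusted p = 0.0346). None of the 14 passed with RNase III against extract alone. With extract in the knockout set, Alox5 was the 1 gene of the 5 lists that passed between genotypes. Over all genes tested, 0.517% were higher and 2.01% lower in the knockout, so this count is no result about the lists. Alox5 stood at 10.6 to 11.7 CPM in the knockout against 3.90 to 4.68 CPM in the wild type (1.37 ± 0.17, edgeR adjusted p = 0.0272). Its genotype-by-extract term was only 0.55 ± 0.29 and did not pass (edgeR adjusted p = 0.663).

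In the oxysterol list 2 of 20 genes rose and 1 fell with extract, close to the shares over all genes and so no result about the list. None passed with RNase III against extract alone. Cyp7b1, a hydroxylase that acts on the product of Ch25h, stood at 5.58 to 6.11 CPM with PBS, 14.0 to 20.1 CPM with extract and 5.89 to 10.9 CPM with RNase III. It rose by 1.54 ± 0.32 with extract (edgeR adjusted p = 0.0237), and its value against extract alone was -1.03 ± 0.31 (edgeR adjusted p = 0.101). Soat2, a cholesterol acyltransferase, rose by 2.43 ± 0.55 (edgeR adjusted p = 0.0331). In the wild type of the knockout set its value was 0.03 ± 0.52 (edgeR adjusted p = 0.985), and its set-by-extract term of -2.39 ± 0.45, the smallest p of the list, did not pass (edgeR adjusted p = 0.569). Cyp39a1, an oxysterol hydroxylase, was lower (-0.73 ± 0.17, edgeR adjusted p = 0.0334). In the pooled wild-type fit Gpr183, the receptor for an oxysterol made by Ch25h and Cyp7b1 together, rose by 0.68 ± 0.17 (edgeR adjusted p = 0.0311). In the RNase III set alone it did not pass (0.56 ± 0.21, edgeR adjusted p = 0.144).

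**Figure D5:**
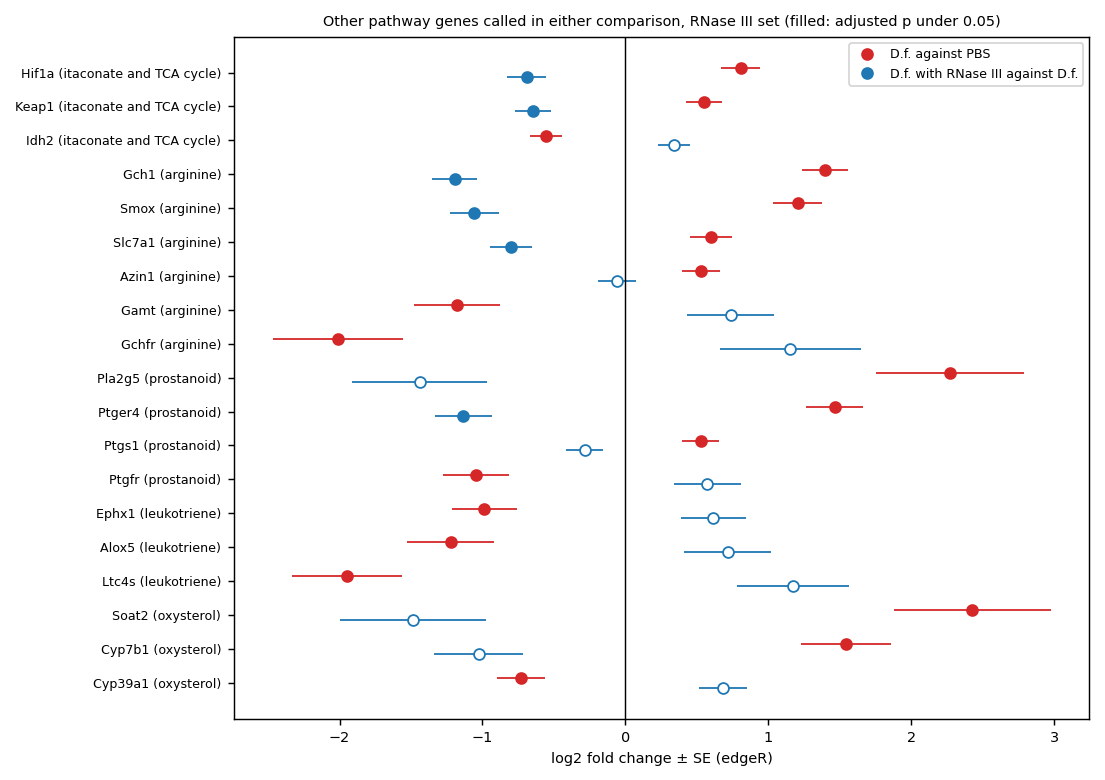
Log2 fold changes ± SE of the other pathway genes called in either of 2 comparisons of the RNase III set, D.f. extract against PBS (red) and D.f. extract with RNase III against D.f. extract (blue); filled points have an edgeR adjusted p under 0.05. Hif1a, Keap1, Gch1, Smox, Slc7a1 and Ptger4 are filled on both sides of 0.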

How the data were processed

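Whole-lung RNA of 12 libraries in 7 groups was analysed. TruSeq libraries of TRIzol-extracted RNA were read as 100-base single ends, per the labels' protocols. Per the submitters' processing notes, bcl2fastq, TopHat2 2.0.8b, the genome mm9 and HTSeq were used. HTSeq's version, annotation and strand setting: not given in the sources used here. The authors deposited raw counts per gene for each library. Genes took 23.1% to 28.2% of all reads; the HTSeq totals for no feature (27.0% to 40.0%), not unique (36.8% to 44.6%) and ambiguous (0.0552% to 0.172%) entered neither library sizes nor tests.

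Counts were tested in R 4.3.3 with edgeR 4.0.16 (TMM, filterByExpr by group, quasi-likelihood test, Benjamini-Hochberg over all genes tested, threshold 0.05). The 6 libraries of a set were fitted together, leaving 3 and 2 residual degrees of freedom. A fit of the 7 wild-type libraries took the set as a term. The SE of a log2 fold change is its absolute value divided by the square root of the quasi-likelihood F statistic. It is not a separate estimate of error, and may be too narrow for genes with few reads. CPM use TMM-scaled library sizes. DESeq2 1.42.0, RLE normalization, no filter, a fit over all 12 libraries and leaving out each library were the alternatives. Libraries of a group differed beyond sampling noise, with chi-square per degree of freedom of 7.33 to 46.6.

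Each of the 8 genes was tested in every comparison, and some are given there only by a count or a range. Of each pathway list, up to 4 genes with the smallest p in a comparison could be named, and for each of the 8 genes the 3 most alike by r. The genes and lists were chosen with earlier results of these data known.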

Additional observations from a re-analysis of the deposited data

Results flagged for a closer look

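The fitted changes of Nos2 with extract had opposite signs in the genotypes, and neither passed its own test (0.63 ± 0.21, edgeR adjusted p = 0.228, in the wild type; -0.77 ± 0.21, edgeR adjusted p = 0.819, in the knockout). Both wild-type D.f. libraries were above the wild-type PBS library, and both knockout D.f. libraries were below the knockout PBS library. The difference between the responses, -1.40 ± 0.30 on the log2 scale, did not pass (edgeR adjusted p = 0.243). The fitted changes of Ptgs2 also had opposite signs, with wild-type D.f. libraries below and knockout D.f. libraries above their single PBS library. Neither passed (-0.38 ± 0.14, edgeR adjusted p = 0.249; 0.19 ± 0.14, edgeR adjusted p = 0.83). Knockout D.f. library 6, at 38.3 CPM, lay within the counting interval of the knockout PBS library (33.5 to 39.5 CPM), and the difference of 0.57 ± 0.20 did not pass (edgeR adjusted p = 0.429). Between the sets, the wild-type D.f. libraries of Ptgs2 were above the PBS libraries in the RNase III set and below the PBS library in the knockout set. Neither change passed (0.77 ± 0.24, edgeR adjusted p = 0.0914, in the RNase III set), and the difference of -1.14 ± 0.37 did not pass (edgeR adjusted p = 0.818).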

How the results depend on the processing

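Of 680 values of the 8 genes under alternatives, 579 kept their direction and their side of the threshold, 56 passed where the reported fit did not, 24 lost the call and 21 changed direction. RLE normalization changed no call and no direction among the 8 genes. The number of the 8 genes called for extract with RNase III against PBS was 1 without the filter and 1 with DESeq2. For wild-type extract against PBS in the knockout set it was 2 without the filter, 3 with DESeq2 and 1 in the fit over all 12 libraries. With DESeq2 it was 1 for knockout extract against PBS, 4 for knockout against wild type and 1 for the genotype-by-extract difference. Leaving out 1 library at a time, the number called ran from 0 to 1 for extract with RNase III against PBS, 1 to 4 for extract with RNase III against extract, 0 to 7 for wild-type extract against PBS in the knockout set, 0 to 6 for knockout extract against PBS, 0 to 5 between genotypes, 0 to 4 for the genotype-by-extract difference and 3 to 6 for the pooled wild type. Leaving out a knockout D.f. library left the residual spread to rest on the wild-type D.f. pair alone, which gave 2977 to 3150 calls over all genes for wild-type extract against PBS, where the reported fit had 232. The counts of the 8 genes with 1 library left out join rises and falls, and are no result about the 8. With the libraries of the RNase III set left out in turn, the log2 fold change for extract with RNase III against PBS ran from -0.35 to 0.50 for Ptges and -0.12 to 0.44 for Ch25h, and that against extract from -0.48 to 0.10 for Nos2 and -0.66 to 0.12 for Ptgs2. Between genotypes with extract it ran from -1.96 to 1.01 for Arg1 (0.00905 in the fit over all 12 libraries), -0.67 to 0.93 for Arg2 and -0.00876 to 0.22 for Ptgs2. The genotype-by-extract difference ran from -0.65 to 2.31 for Arg1 and -0.60 to 0.97 for Arg2. In the pooled wild type Ptgs2 ran from -0.0542 to 0.74. The set-by-extract term ran from -0.50 to 0.12 for Nos2, -1.48 to 0.11 for Arg1, -0.39 to 0.17 for Arg2 and -0.65 to 0.21 for Ptges. None of these reversed values belonged to a reported call, and the cause was not tested.

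Over all genes, the number called changed by more than 1.5 times as follows. DESeq2 called 1893 genes against 1246 for extract with RNase III against extract, 50 against 1 for extract with RNase III against PBS, 649 against 232 for wild-type extract against PBS in the knockout set, 37 against 0 for knockout extract against PBS, 732 against 387 between genotypes, 212 against 1 for the genotype-by-extract difference and 52 against 0 for the set-by-extract term. Without the filter, the counts were 10 for extract with RNase III against PBS, 391 for wild-type extract in the knockout set and 16 for the genotype-by-extract difference, and the fit over all 12 libraries gave 391 and 7 for the last pair. No paired analysis was possible because the groups compared share no replicate numbers. Depth limits Irg1 in PBS lung, where it had 1 to 13 reads. It also limits Arg1 in the knockout set, with 7 reads in the knockout PBS library. The wild-type PBS library and knockout D.f. library 5 had 19 reads of Arg1 each.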

Other observations

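The ratio of Nos2 to Arg1 per kilobase of exon was 1.08 and 1.47 in the PBS libraries of the RNase III set, 0.311 and 0.652 with D.f. extract and 1.26 and 1.19 with RNase III. PBS lung of the knockout set had 2.24 in the wild type and 5.23 in the knockout, and D.f. lung had 0.648 and 1.95 in the wild type and 1.45 and 0.187 in the knockout. Of these, 2.24, 5.23 and 1.45 rest on only 19, 7 and 19 reads of Arg1.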
